A study of Mus musculus with 6 samples.

Results

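The genes described here are 7 members of a group of sugar-binding receptors of macrophages and dendritic cells: the CD209 lectins Cd209a, Cd209b, Cd209d, Cd209f and Cd209g, and the galactose lectins Mgl2 and Clec10a. They were taken by name, 7 of 35865 genes with a matched transcript, because Cd209a and Mgl2 had been seen higher and Cd209b lower in the libraries labelled Tet2 KO. The differences between genotypes given for these 7 genes are therefore a description with no test, and nothing is supported with them. The data are 6 RNA-seq libraries of cardiac macrophages sorted from digested mouse hearts and derived from donor haematopoietic progenitors of the C57BL/6J strain. In 3 libraries the cells were Tet2-deficient (Tet2 KO, Tet2-/-) and in 3 they were wild type (Tet2 WT, Tet2+/+). No other allele or treatment is labelled for either group, and the sort gate, the age of the mice and the part of Tet2 that was deleted are not given in the sources used here. Whether the 3 libraries of a group stem from different mice is not labelled, so a p-value here reflects only how these libraries vary, and that variation may be technical.

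C-type lectins of these families are transmembrane receptors whose extracellular domain binds sugars in a calcium-dependent way. CD209 lectins, whose human relative is DC-SIGN, bind mannose- and fucose-rich glycans on microbes and on host glycoproteins, and pass what they bind to endocytosis. The macrophage galactose lectins bind terminal galactose and N-acetylgalactosamine, and are widely used as markers of macrophages alternatively activated by interleukin 4 and of some dendritic cells. Heart macrophages of the resident kind commonly carry such lectins together with the mannose receptor. TET2 oxidises 5-methylcytosine in DNA, most of which lies in CG dinucleotides.

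Library depth was between 37349505 and 55771087 estimated counts. Tet2 was at 81.2, 82.6 and 78.2 counts per 1000000 counts (CPM) in Tet2 KO replicates 1 to 3 and at 57.5, 76.1 and 60.8 CPM in Tet2 WT replicates 1 to 3. The log2 fold change was 0.32 ± 0.14 (SE; edgeR adjusted p = 0.159), and it was -0.37 when libraries were scaled to the pan-macrophage genes. The targeted gene was thus not lower in the libraries labelled Tet2 KO on the usual scale, and without the deleted part its total checks no label. Every direction below is between libraries as labelled. Of the pan-macrophage genes that were set against the label, Adgre1 (F4/80) was at 1331 ± 153 CPM in Tet2 KO against 780.4 ± 124 CPM in Tet2 WT. Fibroblast genes also differed, with a summed level of 2272 to 4465 CPM over 18 genes in Tet2 KO and 16182 to 29856 CPM in Tet2 WT, and 16 pan-macrophage genes summed to 33317 to 40823 CPM against 19432 to 26615 CPM. The fibroblast sum was above the pan-macrophage sum in Tet2 WT replicate 1 (29856 against 19432 CPM) and Tet2 WT replicate 3 (25276 against 22484 CPM), so the labelled cell type was not the only one with abundant marker RNA in those libraries.

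All 7 genes passed the filter on low counts. There were 3 patterns: Mgl2, Clec10a and Cd209a were higher in every Tet2 KO library than in any Tet2 WT library, Cd209b was lower in every one, and the libraries of the genotypes overlapped for Cd209f, Cd209g and Cd209d. Of the 7, 2 were among the genes called higher by edgeR's quasi-likelihood test at an adjusted p under 0.05 (Cd209a and Mgl2), against 6.11% of the 16386 genes tested, and 1 was called lower (Cd209b), against 10.1%. Libraries did not overlap, with Tet2 KO higher, for 3 of the 7 and for 16.4% of all genes tested, and with Tet2 KO lower for 1 of the 7 and 18.1% of all. Since these genes were chosen on this contrast, nothing is read from those counts. The median log2 fold change of the 7 was 0.27, with a range of -2.41 to 0.81, and that of all genes tested was 0.0025.

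**Figure D1:**
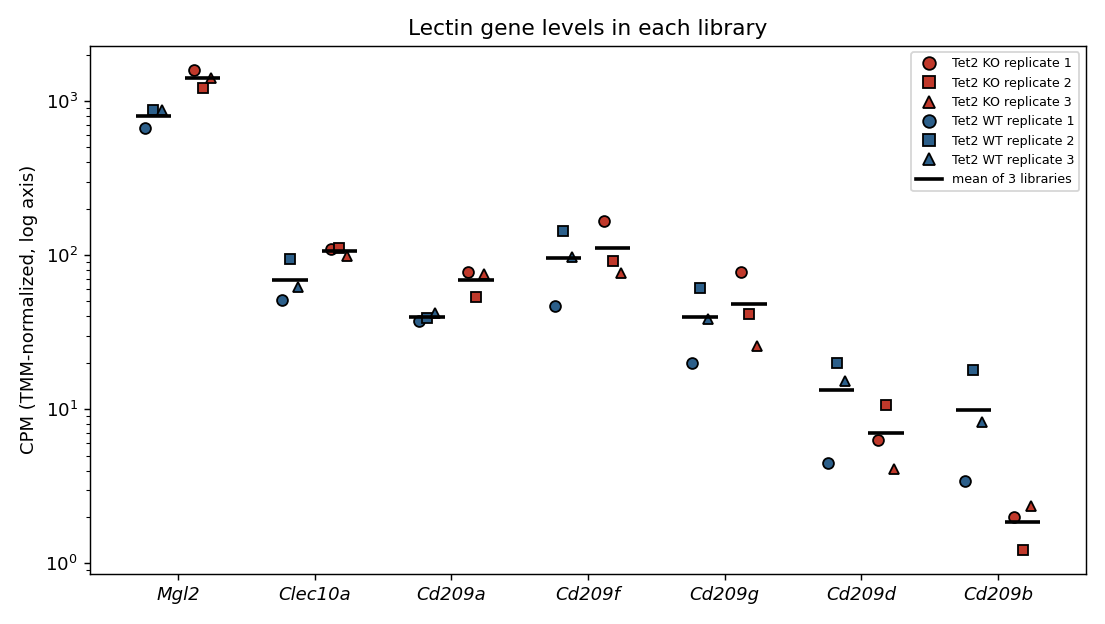
Level of each lectin gene in each library, in TMM-normalized CPM on a log axis. Red marks Tet2 KO, blue marks Tet2 WT, the shape gives the replicate number, and the bar is the mean of 3 libraries. Mgl2 lies highest, between 666 and 1591 CPM, and Cd209b lowest, between 1.23 and 17.8 CPM. Points of the genotypes do not mix for Mgl2, Clec10a, Cd209a and Cd209b, but they do for Cd209f, Cd209g and Cd209d. On a scale set to the pan-macrophage genes the log2 difference is 0.11 for Mgl2, 0.092 for Cd209a and -0.036 for Clec10a.

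Mgl2 was by far the most abundant of these lectins. On the per-length scale of transcripts per 1000000 transcripts (TPM), Mgl2 was at 1575, 1155 and 1402 TPM in Tet2 KO against 707, 914 and 988 TPM in Tet2 WT, and its mean level ranked 83rd of the 16386 genes tested. It made up 66.8 to 81.7% of the summed TPM of the 7 genes in each library. Cd209f ranked 1001st, Clec10a 1368th, Cd209a 2384th, Cd209g 2837th, Cd209d 5868th and Cd209b 10048th. Mgl2 came first, Cd209d sixth and Cd209b last in each of the 6 libraries. Clec10a lay above Cd209f in Tet2 KO replicates 2 and 3 only, and Cd209g above Cd209a in Tet2 WT replicate 2 only, so those neighbours did not differ beyond the spread between libraries.

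Mgl2 (ENSMUSG00000040950.13), which prefers N-acetylgalactosamine, lies on the plus strand of GRCm38 chromosome 11 at 70130329 to 70137550. It was at 1591, 1219 and 1409 CPM in Tet2 KO against 666, 876 and 872 CPM in Tet2 WT. The lowest Tet2 KO library was above the highest Tet2 WT library, and Tet2 WT replicate 1 was the lowest of all. The means were 1406 ± 186 and 804.9 ± 120 CPM (SD, n = 3 each), a log2 fold change of 0.81 ± 0.17 (SE). Clec10a (ENSMUSG00000000318.16), the galactose lectin MGL1 that binds Lewis-type glycans, is the next lectin gene on the same strand, at 70156197 to 70170834. Its level was 110.1, 111 and 98.8 CPM in Tet2 KO against 50.9, 93.7 and 62.5 CPM in Tet2 WT. Tet2 KO libraries lay close together, and Tet2 WT replicate 2 came within a few CPM of them. The means were 106 ± 6.65 and 69.0 ± 22.1 CPM, a log2 fold change of 0.62 ± 0.20, which changed sign (-0.036) on the pan-macrophage scale.

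These neighbours on chromosome 11 resemble each other. Their main transcripts, Mgl2-201 and Clec10a-202, were 68.7% identical in a global alignment, and 419 of the 2166 different 31-base words of Mgl2 transcripts also occurred in Clec10a, so reads from those stretches were divided by kallisto's model. Summed to 1 feature, the pair had a log2 fold change of 0.79 ± 0.17. Mgl2 was 8.89 to 13.3 times as abundant as Clec10a in TPM, and the ratio averaged 12.2 ± 1.75 in Tet2 KO and 11.2 ± 1.98 in Tet2 WT (SD, n = 3 each), a difference smaller than the spread between libraries. The liver-type relatives of the same branch were scarce. Asgr2, a subunit of the asialoglycoprotein receptor, was at 3.77, 4.65 and 3.75 CPM in Tet2 KO against 2.39, 3.15 and 2.04 CPM in Tet2 WT (log2 fold change 0.68 ± 0.32, edgeR adjusted p = 0.188). Asgr1, the other subunit, did not pass the filter.

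Cd209a (ENSMUSG00000031494.7), the mouse gene most often set beside human DC-SIGN, lies on the minus strand of chromosome 8 at 3743397 to 3748984. It was at 78.2, 53.4 and 74.9 CPM in Tet2 KO against 37.1, 39.3 and 42.1 CPM in Tet2 WT. The 3 Tet2 WT libraries were nearly level, while Tet2 KO replicate 2 stood below the other two Tet2 KO libraries and still above every Tet2 WT library. The means were 68.8 ± 13.5 and 39.5 ± 2.48 CPM, a log2 fold change of 0.80 ± 0.16. Cd209a shared no 31-base word with any other gene, and its summed estimated count was a whole number in all 6 libraries to within 0.01, as is the case where no reads are divided with another gene. Mgl2 was 17.0 to 22.1 times as abundant as Cd209a in TPM, at 19.8 ± 1.99 times in Tet2 KO and 19.6 ± 2.28 times in Tet2 WT, a difference within that spread.

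Cd209f and Cd209g are neighbouring copies on chromosome 8 in opposite orientation. Cd209f (ENSMUSG00000051906.15) lies on the minus strand at 4102787 to 4105835 and Cd209g (ENSMUSG00000079168.4) on the plus strand at 4134098 to 4137707. Cd209f was at 166, 91.5 and 77.0 CPM in Tet2 KO against 46.6, 144 and 96.5 CPM in Tet2 WT. Cd209g was at 77.4, 41.3 and 25.5 CPM in Tet2 KO against 19.9, 61.2 and 38.4 CPM in Tet2 WT. For both genes, Tet2 KO replicate 1 and Tet2 WT replicate 2 were the 2 highest libraries and Tet2 WT replicate 1 the lowest, so the genotypes overlapped. The log2 fold change was 0.22 ± 0.41 for Cd209f and 0.27 ± 0.48 for Cd209g, each smaller than its SE, and it was negative for both on the pan-macrophage scale (-0.42 and -0.37). It was also negative for both without Tet2 KO replicate 1 (-0.18 and -0.25) and without Tet2 WT replicate 1 (-0.098 and -0.043).

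The pair is nearly alike in sequence. Their main transcripts, Cd209f-203 and Cd209g-201, were 89.5% identical, against 35.8 to 68.7% for every other pair of the 7 genes. Of 2092 different 31-base words in Cd209f transcripts, 760 (36.3%) also occurred in Cd209g, and none in any other gene. Upstream of the RefSeq start sites, the 154 bases just before the Cd209f start were found letter for letter at positions -168 to -15 before the Cd209g start, where -1 is the last base before it. The last 71 bases before the Cd209f start and the last 84 before the Cd209g start lie in exons of protein-coding transcripts annotated by GENCODE M21. The retained-intron transcript Cd209g-202, a single exon at 4134098 to 4137516, covers all 250 bases before the Cd209g start. The shared run is therefore annotated as transcribed in part for Cd209f and in full for Cd209g. No other pair of these promoters shared a run of more than 12 bases. To show this likeness, 150 bases of each promoter are given 5′ to 3′ on the gene's own strand (RefSeq, GRCm38.p6), with CG dinucleotides in capitals, ending just before the outermost first exon of a protein-coding or nonsense-mediated decay transcript in GENCODE M21. They lie at chr8:4105836-4105985 for Cd209f (minus strand, positions -221 to -72) and at chr8:4134502-4134651 for Cd209g (plus strand, positions -234 to -85, inside its annotated retained-intron transcript):
Cd209f: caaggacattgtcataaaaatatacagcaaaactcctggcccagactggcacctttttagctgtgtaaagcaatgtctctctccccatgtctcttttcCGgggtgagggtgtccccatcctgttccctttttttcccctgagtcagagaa
Cd209g: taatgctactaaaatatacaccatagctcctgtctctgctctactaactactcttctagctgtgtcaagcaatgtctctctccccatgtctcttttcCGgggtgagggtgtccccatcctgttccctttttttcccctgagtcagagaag
Whether reads of the 2 genes were divided correctly was not tested. Summed to 1 feature, a choice made after seeing the data, they had a log2 fold change of 0.24 ± 0.43. The TPM ratio of Cd209f to Cd209g was between 2.56 and 3.47 in the 6 libraries.

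Cd209d and Cd209b were the least abundant of the 7. Cd209d (ENSMUSG00000031495.8), known as SIGNR3, lies on the minus strand of chromosome 8 at 3871824 to 3878555. It was at 6.31, 10.7 and 4.08 CPM in Tet2 KO against 4.46, 20.1 and 15.3 CPM in Tet2 WT. Tet2 WT replicate 1 fell among the Tet2 KO libraries, whereas the other Tet2 WT libraries were above all of them. The log2 fold change was -0.92 ± 0.53. Cd209b (ENSMUSG00000065987.12), known as SIGNR1 and best described on marginal zone macrophages of the spleen, where it takes up bacterial polysaccharides, lies on the minus strand at 3917655 to 3926844. It was at 1.99, 1.23 and 2.34 CPM in Tet2 KO against 3.42, 17.8 and 8.20 CPM in Tet2 WT. Every Tet2 KO library was below every Tet2 WT library, but the Tet2 WT libraries differed from each other by 5.22-fold. The means were 1.85 ± 0.568 and 9.81 ± 7.34 CPM, a log2 fold change of -2.41 ± 0.56.

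The Cd209b values rest on few reads. The estimated counts were 69, 63 and 122 in Tet2 KO and 179, 992 and 445 in Tet2 WT, all whole numbers to within 0.01, and the gene shared no 31-base word with another gene. Its log2 fold change ranged from -2.80 to -1.64 when each library was left out, and the gene was no longer called lower without Tet2 KO replicate 1 or without Tet2 KO replicate 2. It was not called with the replicate number as a block either (-2.13 ± 0.59). The sum over the family showed no clear direction. All annotated Cd209 genes summed to 1 feature had a log2 fold change of 0.26 ± 0.33, and without Cd209a 0.10 ± 0.42, each smaller than its SE. In TPM, Cd209a was 43.0, 60.3 and 40.4 times as abundant as Cd209b in Tet2 KO and 15.4, 2.97 and 7.06 times in Tet2 WT. The ratio was higher in every Tet2 KO library than in any Tet2 WT library, which follows from the choice of these genes.

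The other expressed genes of the chromosome 8 cluster were also low. Cd209c was at 6.17, 11.1 and 9.19 CPM in Tet2 KO against 3.99, 7.73 and 7.90 CPM in Tet2 WT (log2 fold change 0.43 ± 0.33, edgeR adjusted p = 0.442). Cd209e was at 3.11 and 1.24 CPM in Tet2 KO replicates 2 and 3, had no count in replicate 1 (which allows up to 0.0864 CPM), and was at 0.840, 3.63 and 2.01 CPM in Tet2 WT (-0.56 ± 1.12, edgeR adjusted p = 0.805). Neither difference was larger than the spread between libraries.

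Cd209a and Cd209b had little in common upstream, as was so for every pair but Cd209f and Cd209g. Over 250 bases the other pairs of promoters were 44.0 to 58.0% identical, with Cd209a and Mgl2 at 47.6%. Cd209a and Cd209b were 49.7% identical, with no shared run over 8 bases, so their unlikeness is not particular to them. A window chosen in the same way is printed for each to show this, at chr8:3748985-3749134 for Cd209a and chr8:3926845-3926994 for Cd209b, both on the minus strand:
Cd209a: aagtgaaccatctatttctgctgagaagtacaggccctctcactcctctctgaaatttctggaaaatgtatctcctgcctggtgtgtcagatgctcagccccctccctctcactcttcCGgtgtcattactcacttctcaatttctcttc
Cd209b: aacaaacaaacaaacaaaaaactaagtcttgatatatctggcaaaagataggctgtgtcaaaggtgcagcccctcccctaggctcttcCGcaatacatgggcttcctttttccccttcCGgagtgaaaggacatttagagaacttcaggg
RefSeq promoters matched 6 of the 7 genes, all but Clec10a. The 250 bases before the start held 1 CG in Cd209a, 2 each in Cd209b, Cd209f and Cd209g, 3 in Cd209d and 5 in Mgl2, against a median of 6 over 32851 promoters, of which 92.1% held at least 1. The 6-letter word TTCCGG, the core of sites bound by ETS factors, which itself contains a CG, was searched on both strands after the sequences had been read. Its first base stood at position -35 in Cd209a, -38 in Cd209b, -126 in Cd209f and -140 in Cd209g, and 12.0% of all promoters held it. The matches in Cd209f and Cd209g lie at the same place in their shared run of 154 bases, so they are not separate occurrences. The STAT-type word, TTC and GAA with any 4 bases between them, was in none of the 6 (5.85% of all promoters held it), and GAGGAA, a word of PU.1-type sites, was in Cd209d and Mgl2 (23.3% of all), with no overlap between these words. A match is a description of letters only, and methylation at these CGs was not measured here.

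Library by library, how alike the 7 genes were depended on whether the genotype means were kept. Tet2 WT replicate 1 was the lowest Tet2 WT library for all 7, and Tet2 WT replicate 2 the highest for 6, all but Cd209a. The same replicate 1 had the highest fibroblast sum (29856 CPM) and the lowest pan-macrophage sum (19432 CPM) of the 6 libraries, and the part of this in the lectin values was not tested. Over the 6 libraries, which share their depth and cell makeup across genes, log2 levels of Cd209f and Cd209g had a Pearson r of 0.98, and 0.97 after the genotype means were removed. Cd209a and Mgl2 had r = 0.96 (0.76 within genotypes), and Mgl2 and Clec10a r = 0.86 (0.56 within genotypes). Cd209b and Mgl2 had r = -0.57 over all libraries and 0.79 within genotypes, and Cd209b and Clec10a -0.33 and 0.86. Since Cd209a, Mgl2 and Cd209b were chosen on the genotype contrast, their r over all libraries follows in part from that choice. All these r values are descriptions of 6 points.

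**Figure D2:**
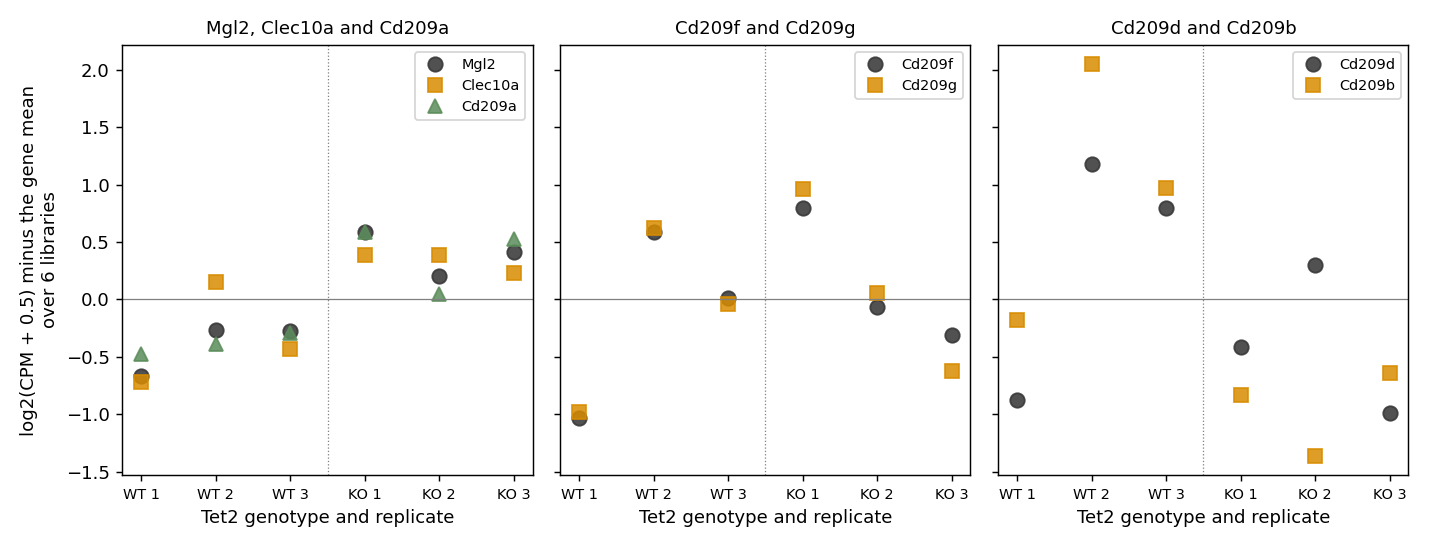
Log2(CPM + 0.5) of each lectin gene minus its own mean over the 6 libraries, with the genotype and replicate number on the horizontal axis and 1 point per library. In the left panel Mgl2, Clec10a and Cd209a lie higher in the Tet2 KO libraries. In the middle panel Cd209f and Cd209g follow each other from library to library (r = 0.98) with no separation of genotypes. In the right panel Cd209b is lower in the Tet2 KO libraries and Cd209d overlaps. The order of replicates on the axis carries no meaning.

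In bulk RNA of sorted cells, fewer cells of a type and less RNA per cell cannot be told apart, so the lectins were also set against marker genes of the same library. Against the mean log2 level of the 16 pan-macrophage genes, 13 of which were called higher and none lower in Tet2 KO (median log2 fold change 0.71), the separation of the upward group went away. The difference between genotypes was 0.11 for Mgl2, 0.08 for Cd209a and -0.03 for Clec10a, with overlapping libraries. Cd209b remained apart, at -8.42, -8.88 and -8.20 in Tet2 KO and -6.82, -5.04 and -5.87 in Tet2 WT, a difference of -2.59. For Cd209f, Cd209g and Cd209d the differences were -0.41, -0.43 and -1.43, with overlap. The number of pan-macrophage genes called higher was 6 with Tet2 KO replicate 3 left out and 7 with Tet2 WT replicate 1 or Tet2 WT replicate 3 left out, and 8 with limma on log2(TPM + 1).

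**Figure D3:**
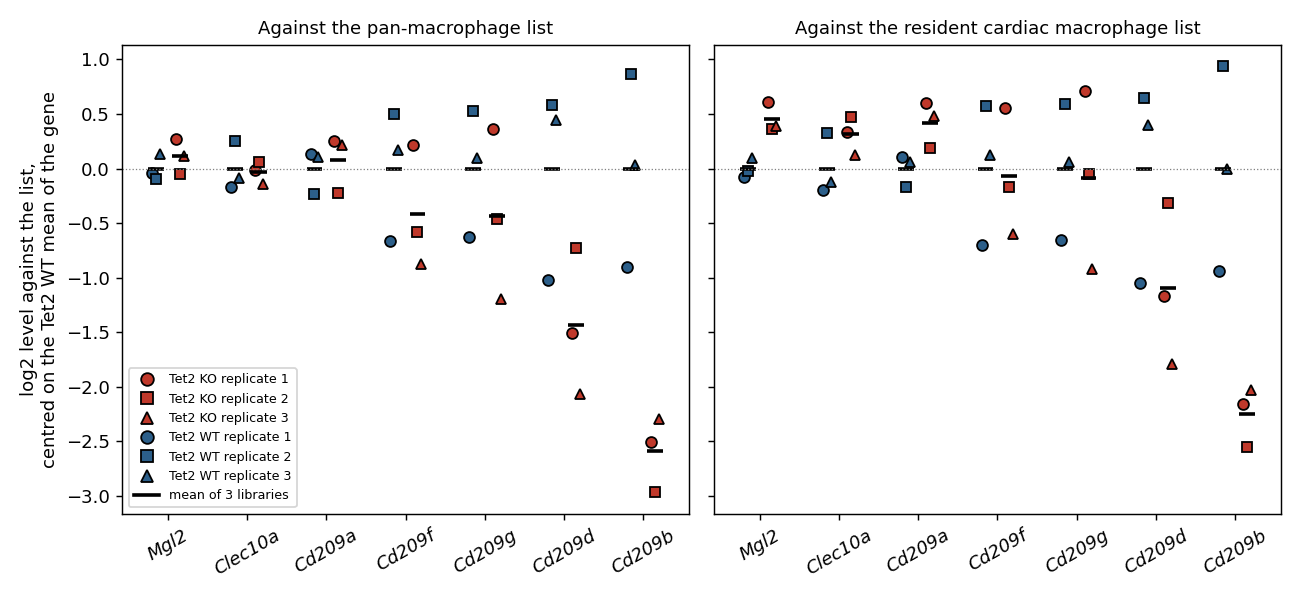
Log2 level of each lectin gene relative to the mean of a marker list in the same library, centred on the Tet2 WT mean of the gene. The left panel uses the pan-macrophage list and the right panel the resident cardiac macrophage list, colours and shapes give genotype and replicate, and bars are means of 3 libraries. Cd209b lies apart in both panels, at -2.59 and -2.25. Mgl2 and Cd209a lie apart only in the right panel, at 0.45 and 0.42, and overlap in the left.

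Of the list of resident heart macrophages 25 genes were tested, 6 called higher and 0 lower in Tet2 KO by edgeR (10 and 1 at an unadjusted p under 0.05; DESeq2 called 9 higher and 1 lower). Their median log2 fold change was 0.38, against 0.0025 over all genes tested. The 6 became 2 with Tet2 KO replicate 3 or Tet2 WT replicate 1 left out, 3 with Tet2 WT replicate 3 left out and 9 with Tet2 KO replicate 2 left out, and on the pan-macrophage scale 0 were called higher and 5 lower. Against this list Mgl2 differed by 0.45 and Cd209a by 0.42 with no overlap, Clec10a by 0.31 with overlap, and Cd209b by -2.25 with no overlap. The called genes with the smallest p were C1qb (0.78 ± 0.16, edgeR adjusted p = 0.00974), Ltc4s (0.66 ± 0.14, edgeR adjusted p = 0.0103), C1qc (0.80 ± 0.18, edgeR adjusted p = 0.0132) and C1qa (0.62 ± 0.15, edgeR adjusted p = 0.0224). Of these only C1qb kept its call with each library left out, and none kept it on the pan-macrophage scale. Of markers named whatever their values, Lyve1, carried by resident macrophages beside vessels, differed by 0.35 ± 0.14 on the log2 scale (edgeR adjusted p = 0.116). Timd4, of the embryonically seeded subset, was at 0.05 ± 0.25 (edgeR adjusted p = 0.927), and the mannose receptor Mrc1 at 0.37 ± 0.17 (edgeR adjusted p = 0.179). Ccr2, the receptor of monocyte-derived macrophages, was at 0.87 ± 0.29 (edgeR adjusted p = 0.0733). Of 17 monocyte genes 7 were called higher and 2 lower, but 2 higher and 5 lower on the pan-macrophage scale. Against their mean level Mgl2 differed by 0.79, Cd209a by 0.76, Clec10a by 0.65 and Cd209b by -1.91, with no overlap. Of the other cells the gate could hold, 3 of 9 B cell genes were called higher and 1 lower (median log2 fold change 0.03). Of 3 neutrophil genes 1 was called higher, and of 14 endothelial genes 2 lower. Of all genes tested 6.11% were called higher and 10.1% lower. Of 7 lymphatic endothelial genes 1 was called lower and 0 higher. Of 4 T and NK cell genes and 10 cardiomyocyte genes 0 were called, but 4 cardiomyocyte genes were called lower on the pan-macrophage scale. On the pan-macrophage scale 0 B cell genes were called higher and 1 lower, and 0 neutrophil genes higher. Of the B cell genes 1 was called higher with Tet2 KO replicate 1, Tet2 KO replicate 3, Tet2 WT replicate 1 or Tet2 WT replicate 3 left out, and of the neutrophil genes 0 with Tet2 WT replicate 1 and 2 with Tet2 WT replicate 2 left out. Of the endothelial genes 1 was called lower with Tet2 KO replicate 1, Tet2 KO replicate 3, Tet2 WT replicate 1 or Tet2 WT replicate 3 left out.

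Cd209a, Mgl2 and Clec10a are also carried by dendritic cells, so markers of those cells are given beside them. Of 24 dendritic cell genes tested, 3 were called higher and 4 lower in Tet2 KO (median 0.21), and their summed level was 573 to 621 CPM in Tet2 KO against 561 to 610 CPM in Tet2 WT. With Tet2 WT replicate 1 or Tet2 WT replicate 3 left out, 0 were called higher, and with Tet2 KO replicate 1 left out 1 was. On the pan-macrophage scale 0 were called higher and 5 lower. The defining markers were low: Flt3, the growth factor receptor of dendritic cells, was at 2.22, 3.97 and 5.71 CPM in Tet2 KO against 2.50, 2.17 and 2.71 CPM in Tet2 WT (0.69 ± 0.39, edgeR adjusted p = 0.281). Zbtb46, their lineage factor, was between 13.3 and 18.2 CPM in the 6 libraries (-0.09 ± 0.18, edgeR adjusted p = 0.799). Relative to the mean of this list, Mgl2 differed by 0.85, Cd209a by 0.81 and Clec10a by 0.70, and Cd209b by -1.86, all with no overlap. Of the genes named by the smallest p, Ifi205 (-1.90 ± 0.28, edgeR adjusted p = 0.00208) and Dpp4 (-1.35 ± 0.24, edgeR adjusted p = 0.00428) fell, and Kmo rose (0.80 ± 0.18, edgeR adjusted p = 0.0133). Cacnb3 (-2.05 ± 0.42, edgeR adjusted p = 0.00974) and Fscn1 (-1.30 ± 0.33, edgeR adjusted p = 0.0240) fell too. Irf8 (0.64 ± 0.15, edgeR adjusted p = 0.0177) and Bst2 (0.45 ± 0.13, edgeR adjusted p = 0.0482) rose. Irf8 and Fscn1 were not called without Tet2 KO replicate 1, Tet2 WT replicate 1 or Tet2 WT replicate 3. Fscn1 was not called without Tet2 KO replicate 3 either, and Bst2 was not called with any library left out. Kmo was no longer called with Tet2 KO replicate 3, Tet2 WT replicate 1 or Tet2 WT replicate 3 left out, nor on the pan-macrophage scale or with limma on log2(TPM + 1), and Dpp4 was not called in the last of these or on length-scaled TPM counts.

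Lectins outside the 7 genes were also compared. Of 26 other C-type lectin receptors tested, 9 were called higher and 5 lower in Tet2 KO, and the median log2 fold change was 0.55. Clec4n, the fungal mannan receptor Dectin-2, was at 155, 133 and 184 CPM in Tet2 KO against 57.2, 88.1 and 80.0 CPM in Tet2 WT and rose by 1.07 ± 0.18 (edgeR adjusted p = 0.00407). Clec4b1 also rose (0.81 ± 0.16, edgeR adjusted p = 0.00729), as did the inhibitory receptor Clec12a (0.70 ± 0.15, edgeR adjusted p = 0.0132) and Clec4a1 (0.62 ± 0.15, edgeR adjusted p = 0.0205). Those that fell included the collagen receptor Mrc2, at 3.92, 5.80 and 10.2 CPM in Tet2 KO against 86.9, 46.1 and 71.9 CPM in Tet2 WT (-3.36 ± 0.37, edgeR adjusted p = 0.000569). Pla2r1 (-2.82 ± 0.40, edgeR adjusted p = 0.00171), Colec12 (-2.08 ± 0.30, edgeR adjusted p = 0.00237) and Thbd (-1.20 ± 0.20, edgeR adjusted p = 0.00333) fell as well. The 9 higher calls became 2 with Tet2 WT replicate 1 or Tet2 WT replicate 3 left out, 3 with Tet2 KO replicate 3 and 5 with Tet2 KO replicate 1 left out, and 0 on the pan-macrophage scale. Clec12a and Clec4a1 lost their calls with either of those Tet2 WT libraries left out, and Clec4a1 also with Tet2 KO replicate 3 left out. Fibroblasts are a known source of Mrc2 and Colec12, and fibroblast genes moved the same way, with 17 of 18 called lower in Tet2 KO (median -3.01). Their part in the lectin result was not tested. Of the 6 tested genes of the CD209 and asialoglycoprotein type outside the 7, 0 were called by edgeR, limma voom or DESeq2, and 0 had an unadjusted p under 0.05 in edgeR, while 1 was called lower with Tet2 KO replicate 1 or Tet2 KO replicate 2 left out and with the replicate block.

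Mgl2 and Clec10a are used as markers of the interleukin 4 response, so other genes of that response are given. Of 23 tested, 6 were called higher and 1 lower in Tet2 KO, with a median of 0.42. Egr2, a factor induced by interleukin 4, was at 77.0, 57.8 and 60.0 CPM in Tet2 KO against 33.8, 37.8 and 38.1 CPM in Tet2 WT and rose by 0.83 ± 0.15 (edgeR adjusted p = 0.00456). Matk, a tyrosine kinase, rose by 0.85 ± 0.19 (edgeR adjusted p = 0.0134), and the nuclear receptor Pparg by 0.82 ± 0.20 (edgeR adjusted p = 0.0226). Pdcd1lg2 (PD-L2) was at 0.288, 0.739 and 0.670 CPM in Tet2 KO, at 0.0359 CPM in Tet2 WT replicate 2 and without a count in the other two Tet2 WT libraries, which allows up to 0.0572 CPM. It was called higher (edgeR adjusted p = 0.00773). Tgm2, a transglutaminase, fell by 1.46 ± 0.24 (edgeR adjusted p = 0.0031). The classical markers Retnla (0.12 ± 0.29, edgeR adjusted p = 0.843) and Arg1 (0.52 ± 0.69, edgeR adjusted p = 0.688), chosen for naming after their values were seen, did not pass. The number called higher was 1 without Tet2 WT replicate 1, and on the pan-macrophage scale 1 was called higher and 4 lower. Matk and Pdcd1lg2 were not called without Tet2 WT replicate 1, nor Pparg without Tet2 KO replicate 1, Tet2 WT replicate 1 or Tet2 WT replicate 3.

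Genes that make or carry the sugars these lectins bind were taken as a last list. Of 26 tested, 6 were called higher and 0 lower in Tet2 KO by edgeR (12 and 1 at an unadjusted p under 0.05; DESeq2 called 9 and 0), with a median of 0.38. B4galnt1, which adds N-acetylgalactosamine to gangliosides, rose by 0.94 ± 0.18 (edgeR adjusted p = 0.00615), and St6galnac4, a sialyltransferase, by 0.58 ± 0.13 (edgeR adjusted p = 0.0158). The glycoproteins Ceacam1 (0.92 ± 0.20, edgeR adjusted p = 0.0121) and Ptprc (CD45; 0.69 ± 0.16, edgeR adjusted p = 0.0155) rose too. The count was 2 without Tet2 WT replicate 1 and 4 without Tet2 KO replicate 3, whereas on the pan-macrophage scale 0 were called higher and 8 lower. St6galnac4 and Ptprc were not called with Tet2 WT replicate 1 or Tet2 WT replicate 3 left out, nor Ptprc without Tet2 KO replicate 3.

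The makeup of transcripts varied between the 7 genes. Cd209a-201 held 92.4 to 97.3% of the Cd209a counts, and Mgl2-201 held 67.8 to 70.8% of the Mgl2 counts. Cd209f stood out, with 52.8 to 58.1% of its counts assigned to transcripts annotated as retained introns, against 22.0 to 30.6% in Cd209g. The share of the retained-intron transcript Cd209a-202 did not overlap between the genotypes, and it held 5.21, 3.56 and 4.74% of Cd209a counts in Tet2 KO against 1.02, 2.45 and 1.73% in Tet2 WT. The shares of Cd209a-201 (92.4, 95.0 and 94.8% against 95.9, 95.9 and 97.3%) and Mgl2-201 were lower in every Tet2 KO library, and that of the retained-intron transcript Cd209f-201 was higher (2.03, 2.12 and 1.84% against 1.37, 1.47 and 1.57%). No test was made of these shares, which were singled out after their values were seen. For Mgl2, 4 of 5 annotated transcripts were higher in TPM in every Tet2 KO library. For Cd209b, Cd209b-201 alone was lower in every Tet2 KO library, at 34.4, 59.4 and 83.9 counts against 171, 861 and 402. Mgl2 and Cd209b were chosen for their direction between genotypes, so these separations follow in part from that choice. The share of all transcripts that separate in this way was not counted, and nothing is read from them. How kallisto divides reads among transcripts of a gene limits these shares.

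**Figure D4:**
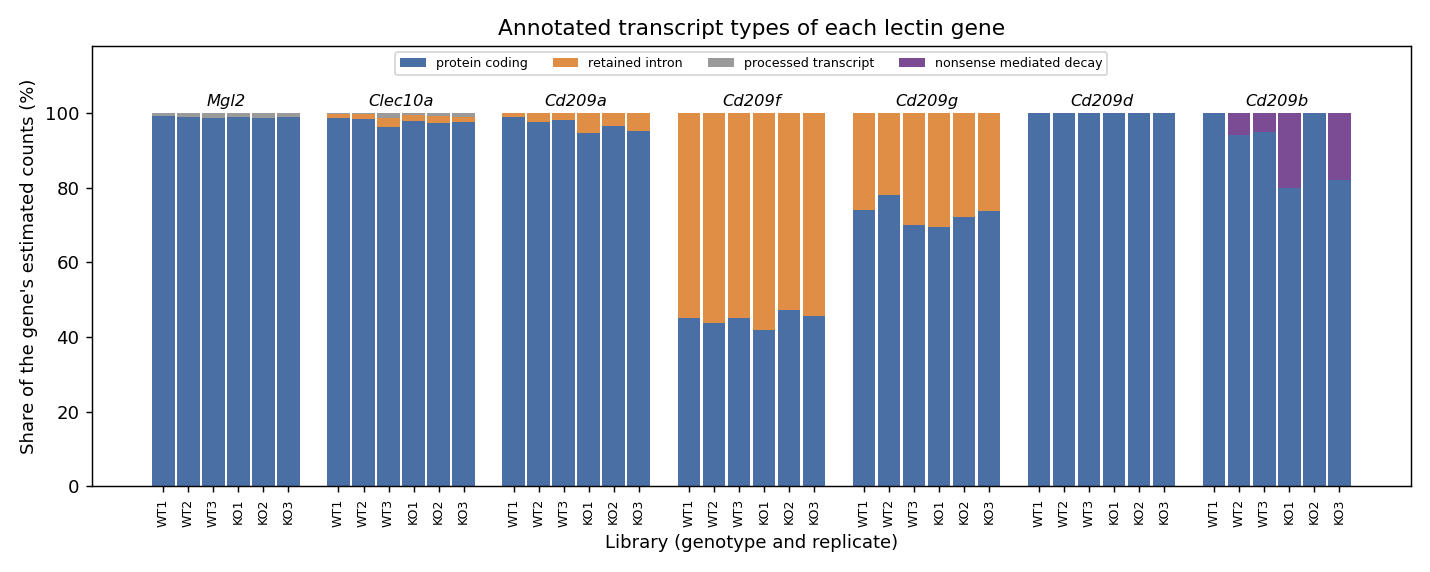
Share of each lectin gene's estimated counts, in percent, by annotated transcript type in each library. Each bar is 1 library and adds to 100%, and colours give the type. Retained-intron transcripts take 52.8 to 58.1% in Cd209f and 22.0 to 30.6% in Cd209g. In Cd209a they take 3.56 to 5.21% in Tet2 KO and 1.02 to 2.45% in Tet2 WT.

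Among 10972 other protein-coding genes (mean log2 CPM at least 2), the nearest patterns over the 6 libraries were found by Pearson r of log2(CPM + 0.5). For Cd209a they were Cep55 (r = 0.9987), Med16 (0.9973) and Cept1 (0.9966), and for Mgl2 they were Pnpla7 (0.9977), Arap1 (0.9972) and Padi2 (0.9970). For Clec10a they were Tet2 itself (0.9955), Maf (0.9939) and Bcl2a1a (0.9920). For Cd209b they were Nlrc3 (0.9742), Ttc38 (0.9738) and Eif4a2 (0.9704), and for Cd209d Gm21992 (0.9426), Snx24 (0.9381) and Kantr (0.9308). Cd209f was nearest to Llph (0.9693), Ttc39c (0.9671) and Relch (0.9572), and Cd209g to Ttc39c (0.9686), D3Ertd751e (0.9616) and Llph (0.9504). The number of genes with r over 0.95 was 579 for Mgl2, 402 for Cd209a and 98 for Clec10a, but 4 for Cd209b, 3 each for Cd209f and Cd209g, and 0 for Cd209d. Mgl2 and Cd209a were chosen for being higher in Tet2 KO, as many other genes were (1001 called). Their larger counts follow in part from that choice. With 6 libraries and 10972 candidates, a high r is a description of these libraries.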

How the data were processed

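RNA-seq was made from 6 libraries of sorted cardiac macrophages, 3 per Tet2 genotype. Trim Galore 0.6.4 trimmed the reads and kallisto 0.44.0 placed them on mouse transcripts of GRCm38, per the submitters' processing notes; the sources used here give no annotation release. The authors' tables hold, per the file headers, an unnormalized estimated count and a TPM value per transcript, the latter scaled per length and to one total in every library. Of 118783 transcripts, 116622 (98.2%) matched GENCODE M21 by identifier without version, 99.8% of them with the same length; the other 2161 held at most 0.671% of a library's counts and were left out. Counts were summed over 35865 genes and rounded. Genes passing edgeR's filterByExpr (16386) were TMM-scaled and entered the quasi-likelihood test of edgeR 4.0.16 (robust, R 4.3.3, genotype as the only term, Benjamini-Hochberg over all tested genes, threshold 0.05), a script checked on simulated counts. SE is the fold change divided by the root of the F statistic. CPM values are TMM-normalized. Levels relative to a marker list are log2(CPM + 0.5) minus the list's mean in the same library. A count of 0 is given with the level that 3 counts would have, for counting error only.

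The 7 genes and all lists were chosen with earlier results of these data known. Genes named beside them were Cd209c, Cd209e, Asgr1, Asgr2, Adgre1, Timd4, Lyve1, Ccr2, Flt3, Zbtb46 and Mrc1, and the 3 most alike protein-coding genes per lectin. Up to 4 called genes by smallest p in each direction were named for the resident macrophage, dendritic cell, other lectin, interleukin 4 and glycan lists. Tet2, the targeted gene, is given as well. Promoters are RefSeq's. Proteins were not analysed here. Alternatives were other scalings and filters, each library left out, a replicate block, DESeq2 1.42.0, limma 3.58.1 (voom, and log2 TPM), length-scaled TPM counts, summed paralogs and other pseudocounts.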

Additional observations from a re-analysis of the deposited data

How the results depend on the processing

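With each library left out in turn, the genes called higher in Tet2 KO numbered 350 to 1402 and those called lower 1032 to 1739, against 1001 and 1652 with all 6 libraries. The lowest count of each was without Tet2 WT replicate 1. Of the 7 lectin genes, 2 to 3 were then called higher and 0 to 1 lower, the 0 coming without Tet2 KO replicate 1 and without Tet2 KO replicate 2. Those fits tested 16793 to 17091 genes. The log2 fold changes ranged over 0.70 to 0.96 for Cd209a, -2.80 to -1.64 for Cd209b, -1.36 to -0.48 for Cd209d, -0.18 to 0.65 for Cd209f, -0.25 to 0.73 for Cd209g, 0.46 to 0.92 for Clec10a and 0.70 to 0.90 for Mgl2. limma voom called 1075 genes higher and 1761 lower of 16386 tested, and of the 7 lectin genes 3 higher and 0 lower. limma called 384 genes higher on log2(TPM + 1), with 1930 lower, and 400 on log2(TPM + 0.1), with 1922 lower. Scaled to the pan-macrophage list, which moved the median of all genes to -0.70, 23 genes were called higher and 7415 lower, 0 of the 7 were called higher and 2 lower, and the log2 fold changes were 0.092 for Cd209a, 0.11 for Mgl2 and -0.036 for Clec10a. Counts summed over all Cd209 genes gave 0.26 in place of the values of Cd209a, Cd209b and Cd209d, and without Cd209a 0.10 in place of those of Cd209b and Cd209d, because the more abundant genes set the sum. With the replicate block 789 genes were called higher and 1558 lower, and of the 7 lectin genes 3 were called higher and 0 lower. The labels do not say that a number marks a shared animal or day, so the libraries were not treated as pairs. Same-numbered libraries correlated at 0.05, 0.11 and 0.03 in their deviations, each Tet2 KO library best with its own number. Whether the numbers mark pairs was not tested. The causes of the other differences were not tested. At this depth a gene with no count in a library, such as Cd209e in Tet2 KO replicate 1, is only known to lie under 0.0864 CPM, for counting error alone.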
